A study of Mus musculus with 78 samples.

Results

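The regions described here carried strong H3K9me3 in mouse embryonic stem cells (mESCs) and still overlapped H3K9me3 peaks 24 h after TRIM28 had been targeted for degradation. A region is a peak of the first DMSO library that ranks among its 10000 highest by fold enrichment, the ratio of ChIP signal to what the peak caller took as background, and overlaps, by at least 1 bp, the 10000 highest peaks of the second and of the third DMSO library. Of the 118318 deposited peaks of that first library, 5871 met these conditions. A region was called kept when it also overlapped any deposited peak of dTAG-13 libraries 2 and 3, and 4816 of the 5871 (82.0%) did so. The members were thus chosen by measured values, namely H3K9me3 fold enrichment in DMSO and the presence of H3K9me3 peaks with dTAG-13. The other 1055 serve as the comparison: 392 had a peak in dTAG-13 library 2 alone, 190 in library 3 alone and 473 in neither.

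The cells were V6.5 mESCs with a degradation-sensitive FKBP tag knocked in at the N terminus of TRIM28, grown on feeder fibroblasts that were removed by letting them attach to gelatin before the experiments. They received DMSO or 500 nM dTAG-13, a compound that directs the tagged protein to degradation, and DMSO controls carry the same tagged alleles. ChIP-seq after 24 h had 3 DMSO and 3 dTAG-13 libraries each for H3K9me3 and H3K27Ac, and 2 and 2 each for RNAPII and MED23. RNA came from TT-SLAM-seq, which reads newly made RNA through base conversions in labelled transcripts, and from poly(A) RNA-seq, each with 3 libraries in DMSO and 3 at each time (2, 6 and 24 h, and 96 h for RNA-seq alone). The DMSO libraries of both time courses are labelled 0 h. By these labels time in culture and dTAG-13 differ together there, and their parts cannot be told apart. A second line, shREPEATS, carries doxycycline (Dox)-inducible shRNAs against IAP, MMERVK10C, MMERVK9C and MMETn transcripts, and its total RNA was sequenced in 3 libraries each with DMSO, with dTAG-13 and with dTAG-13 and Dox at 24 h. Line, library preparation and the labelled time of the DMSO control differ together between the RNA-seq experiments, so their parts in a difference cannot be told apart. Nothing in the labels says that replicates came from separate cultures, so p-values measure the spread between these libraries, which may be technical.

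H3K9me3 is the trimethylation of lysine 9 of histone H3, a mark of silent chromatin that is bound by HP1 proteins. In mESCs, KRAB zinc-finger proteins recognise retroelement sequences and recruit TRIM28, which brings the methyltransferase SETDB1 to the site. Intracisternal A-particles (IAPs), MMERVK and MMETn elements are endogenous retroviruses (ERVs) of the mouse that this pathway silences, and imprinting control regions are targets of the KRAB zinc-finger protein ZFP57. H3K27Ac marks active promoters and enhancers, RNAPII is RNA polymerase II and MED23 is a subunit of the Mediator coactivator.

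Several libraries stood apart. H3K9me3 dTAG-13 library 1 had 11474 peaks over 5.32 Mb, against 104579 to 147611 peaks in the other 5 libraries. It played no part in the choice of members. The libraries labelled dTAG-13 and Dox lay with the DMSO libraries of their line: their log2 profiles correlated with DMSO at r between 0.989 and 0.994 across genes and with dTAG-13 alone at 0.976 to 0.977, and genes are not independent replicates. Only 1 gene was higher and 2 lower than in DMSO out of 16166 tested (limma, Benjamini-Hochberg adjusted p below 0.05 and more than 2-fold; 2761 higher and 150 lower at an unadjusted p below 0.05). The titles of these samples name Dox in this group alone, but the treatment text names 24 h of Dox beforehand for all 3 groups of the line. Whether TRIM28 was degraded in each library was not measured in the files analysed here, and the RNA of Trim28 does not check it, since dTAG-13 acts on the protein. In the time course it was 622, 622 and 626 TPM in DMSO and 369, 365 and 382 TPM at 24 h. Trim28 RNA of the shREPEATS line was 252, 283 and 276 TPM in DMSO, 213, 203 and 203 TPM with dTAG-13, and 285, 284 and 284 TPM with dTAG-13 and Dox.

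The DNA sequence of the regions was read with sequences that the study designed against ERVs. They are 48 probes of 20 bases for RNA-FISH of IAPez, the internal part of IAP, and 21-base shRNA targets. These searches were chosen after values were seen, ask for an exact match on either strand, and name a region only by the letters it holds. The probes shown are the most frequent in kept regions (46) and those whose sites lay least (9) or most (21) often in a peak of dTAG-13 library 3, or most often in a peak of libraries 1 and 2 (38), and the targets are the 2 against IAPez.
IAPez probe 46: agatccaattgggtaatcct
IAPez probe 9: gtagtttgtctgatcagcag
IAPez probe 21: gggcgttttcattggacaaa
IAPez probe 38: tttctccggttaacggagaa
shRNA target IAPez 1: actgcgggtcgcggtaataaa
shRNA target IAPez 2: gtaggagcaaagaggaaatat

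Most kept regions held IAPez sequence. At least 1 probe matched in 2834 of 4816 kept regions (58.8%) and in 152 of 1055 regions that were not kept (14.4%). Matches lay on a single strand in 2821 of these kept regions. With 5 or more probes required the shares were 47.5% and 5.31%. Probe 46 alone matched in 1686 kept regions (35.0%) and in 26 others (2.46%). The target IAPez 1 was found in 1008 kept regions (20.9%) and in 43 others (4.08%), and IAPez 2 in 523 (10.9%) and in 17 (1.61%). The 2 MMERVK10c targets were found in 1 and 4 kept regions and in no other, and the MMERVK9c and MMETn targets in no region of either kind, which says only that those letters are not there.

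Read the other way, 94.9% of the 2986 regions with a probe match were kept, against 68.7% of the 2885 without. Of the 1681 regions with at least 10 probes, 1666 (99.1%) were kept. Wider regions can more easily meet a rule of 1 bp, so the shares were taken within width classes. Under 1 kb, 65.8% of regions with a match and 57.7% without were kept, and from 3 to 5 kb the shares were 98.1% and 80.4%. The share with a match was the higher one in all 5 width classes. Elements of the MMERVK list of full-length copies overlapped 217 regions, of which 149 (68.7%) were kept. Within that list MMERVK10C had 93 of 118 kept (78.8%) and MMERVK9C 25 of 54 (46.3%), and of 135 regions with a listed MMETn element 99 (73.3%) were kept.

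**Figure D1:**
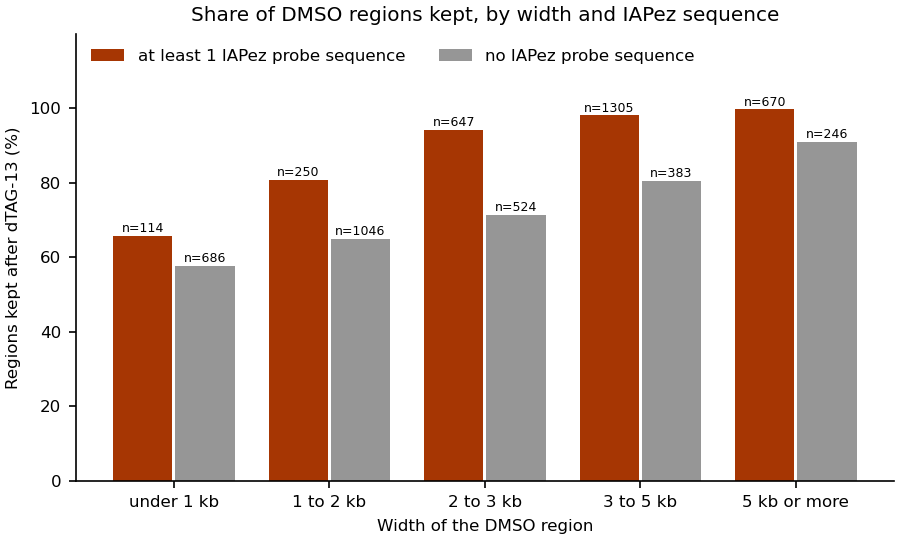
Percent of the 5871 strong DMSO regions that were kept after dTAG-13, in 5 classes of width, for regions with at least 1 exact IAPez probe match and with none; n is the number of regions in each bar. The share rises with width in both classes, and the bar with a probe match is higher in each class, from 65.8% against 57.7% under 1 kb to 99.7% against 91.1% at 5 kb or more.

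Regions with the same probe could fall on either side of the rule. The windows below show 120 bases of the mm10 reference around probe 46, which is in capitals and read here on the strand opposite to the probe. They come from the kept region whose lowest fold enrichment was highest among those with this probe (region chr14:18859623-18862041) and from the region with the highest fold enrichment in DMSO library 1 among those not kept that hold this probe (chr5:124270889-124275113).
Kept, chr14:18860401-18860520, minus strand: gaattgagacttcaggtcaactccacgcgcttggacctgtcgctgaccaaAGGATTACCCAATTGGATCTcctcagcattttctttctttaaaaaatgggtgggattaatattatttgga
Not kept, chr5:124273850-124273969, plus strand: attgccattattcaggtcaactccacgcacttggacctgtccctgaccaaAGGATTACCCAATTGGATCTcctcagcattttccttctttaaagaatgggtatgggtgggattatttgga
The kept region had fold enrichments of 5.16, 5.15 and 6.75 in the DMSO libraries and of 6.07, 5.66 and 5.18 in the dTAG-13 libraries. The other had 6.08, 4.40 and 5.04 in DMSO, no peak in dTAG-13 libraries 1 and 3, and 2.80 in library 2.

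The link with IAPez depended on how strictly a kept peak was defined. Where both dTAG-13 peaks had to reach a −log10 q of 10, 124 regions were left, of which 12 (9.68%) held a probe, while 51.7% of the regions then not kept did. These 124 were less masked as repeats than all kept regions (median 73.4% against 94.2% of bases) and poorer in CpG (median observed to expected ratio 0.192 against 0.419). A total of 120 of the 124 (96.8%) also overlapped a peak of dTAG-13 library 1. Under the other definitions for which it was computed the probe share of kept regions was between 52.1% and 73.9%, and above that of regions not kept. It was not computed with all deposited DMSO peaks or without DMSO library 1.

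Kept meant overlapped, and seldom whole. The median share of a kept region under peaks was 100%, 100% and 98.7% in the DMSO libraries, and 59.2% and 56.4% in dTAG-13 libraries 2 and 3. In DMSO library 1 it is 100% by definition, since the regions are peaks of that library. Only 397 kept regions (8.24%) were covered over at least 90% of their length in both of these libraries, and 2237 (46.4%) over at least 50%. The marked stretch was also broken up: 3044 kept regions (63.2%) held more than 1 peak in dTAG-13 library 2 and 2677 (55.6%) in library 3, against 288 (5.98%) and 857 (17.8%) in DMSO libraries 2 and 3. The median fold enrichment of the highest peak was 4.80, 4.31 and 4.22 in DMSO and 3.16 and 2.89 in dTAG-13 libraries 2 and 3. In 4332 regions (90.0%) both dTAG-13 values lay below every DMSO value, and in 31 both lay above. These values chose the members, so they are a description with no test. Fold enrichments were called within each library and were not scaled between libraries, and the number of reads behind a peak is not in these files.

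The dTAG-13 library that the rule did not use gives a separate reading. It had a peak in 1944 kept regions (40.4%) and in 35 regions not kept (3.32%). Width was not held equal in these shares, and kept regions were wider. Over all strong regions this library had a peak in 19.6% of those under 1 kb and in 63.9% of those of 5 kb or more. It is a single library with few peaks, so no test was made. At the edges of the rule, the region of rank 10000 had a fold enrichment of 3.99951 and the next peak outside 3.9995. The smallest overlaps counted as kept covered 0.351% of a region in dTAG-13 library 2 and 0.0751% in library 3.

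Along IAPez the remaining H3K9me3 peaks were uneven. Positions are median offsets from probe 19 on the sense strand, in regions that held both probes, counted from the median offset of probe 1. For probe 38 they rest on 210 regions. Late probes spread widely, with quartiles of 879 and 3435 bp from probe 19 at probe 46. At probe 9 (1132 bp), 53.4% of the sites in kept regions lay in a peak of dTAG-13 library 2 and 6.97% in a peak of library 3. At probe 21 (2467 bp) the shares were 86.3% and 94.6%. At probe 38 (4635 bp) they were 87.5% and 91.6%. In library 1 the share was 0.746% at probe 9, 10.7% at probe 21 and 15.0% at probe 38. These 3 probes were picked for their values, and library 2 was lower at probe 2 (42.6%) and at probe 34 (44.4%) than at probe 9. In DMSO 99.5% to 100% of the sites of probes 9, 21 and 38 were covered in each library, by definition all of them in library 1. The dTAG-13 libraries did not follow each other everywhere: at probes 8 and 10, on either side of probe 9, library 2 covered 61.6% and 63.4% of the sites and library 3 covered 8.75% and 14.3%. How reads from near-identical copies were placed is not given in the sources used here, so values from single copies are uncertain.

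**Figure D2:**
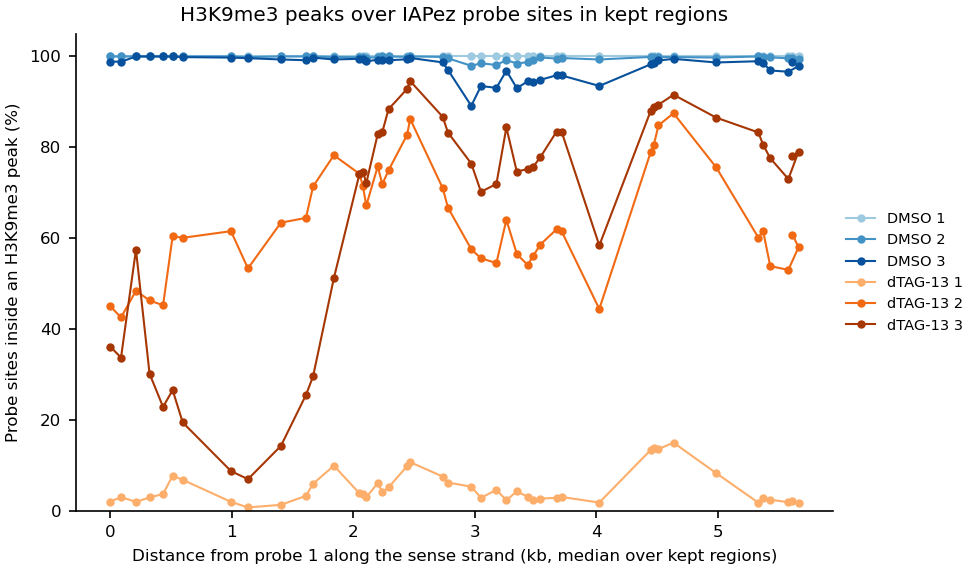
Percent of exact IAPez probe sites in kept regions that lie inside an H3K9me3 peak, by distance from probe 1 along the sense strand (kb), with 1 line per library. Distances are differences of median offsets from probe 19. DMSO library 1 is at 100% by definition, since the regions are its peaks. The DMSO lines stay at 89.1% or above, dTAG-13 library 3 falls to 6.97% at probe 9 and reaches 94.6% at probe 21, and dTAG-13 library 1 stays at or below 15.0%.

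Compared with regions not kept, kept regions were wider, richer in repeats and farther from gene starts. Their median width was 3085.5 bp (quartiles 1806 and 4517 bp), against 1396 bp for regions not kept, and together they covered 16.5 Mb. Bases masked as repeats in the reference made up a median of 94.2% of a kept region and 77.7% of a region not kept. GC content was 46.3% and 46.9%, and the observed to expected CpG ratio 0.419 and 0.340. The hexamer TGCCGC, the core of the sequence that ZFP57 binds when methylated, was searched on both strands and found in 70.1% of kept regions, 38.2% of regions not kept and 46.2% of the 10000 highest regions. It followed the IAPez matches: 95.3% of kept regions with a probe held it, against 34.2% of those without, and 30.2% of regions not kept without a probe. Widths differ between these sets, and a match is no evidence of binding.

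The median distance to the nearest gene start was 20438.5 bp for kept regions and 13746 bp for regions not kept, and to the nearest protein-coding start 82773.5 and 33463 bp. Gene bodies overlapped 28.6% and 35.1% of them, and exons of protein-coding genes 2.89% and 6.92%. A gene start lay within 20 kb of 2383 kept regions (49.5%). The 124 regions with dTAG-13 peaks of a −log10 q of at least 10 lay closer to gene starts than all kept regions. Their median distance was 9787.5 bp to a gene start and 63088.5 bp to a protein-coding start, and gene bodies overlapped 50.8% of them. Super-enhancers of mESCs, as listed by the study, overlapped 1 kept region and 2 regions not kept. By chromosome, kept regions were most dense on chromosomes 13, 7 and 17, with 265, 230 and 210 per 100 Mb, and sparsest on Y and 19, with 49.0 and 89.5. Of the strong regions on X, 217 of 232 (93.5%) were kept, on Y 45 of 47 (95.7%) and on chromosome 14 257 of 280 (91.8%), against 81.4% on autosomes. Probe matches were also more frequent on X (73.3% of strong regions), Y (66.0%) and chromosome 14 (61.1%) than on autosomes (49.8%). Almost as many had a close neighbour as not, since 49.1% of kept regions lay within 20 kb of another of the 5871 strong regions, kept or not. Neighbouring regions may thus be pieces of a single element.

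The 10 kept regions with the highest value of their lowest fold enrichment were mostly free of IAPez. Regions 1 to 3 are adjacent at chr10:3109428-3117156 and had 9.01 to 11.8-fold enrichment in DMSO, 46.0 to 58.2-fold in dTAG-13 library 1 and 23.8 to 25.7-fold in library 3. In dTAG-13 library 2 they had 10.4, 10.3 and 9.14-fold, within the DMSO range. They were masked as repeats over at least 97.1% of their length, and the long noncoding RNA genes 9230019H11Rik and B020014A21Rik and the pseudogenes Gm30674 and Gm3318 start within 20 kb, none of which passed the filter on low values. Regions 4 and 5 (chr9:123935333-123937250 and chr9:123927454-123934404) had little repeat sequence (13.7% and 17.8%) and no gene start within 20 kb. Region 6 (chrX:110863134-110868494) was the only member of the 10 with IAPez probes, 20 in all. Region 7 (chrX:150865280-150865811) lay near Gm27191, region 8 (chr4:146068020-146070319) over an exon of the pseudogene Gm13034, region 9 (chrY:90737868-90742379) near Gm21860 and Mid1-ps1, and region 10 (chr1:129397421-129397889) in an intron of Thsd7b. Region 9 overlapped an RNAPII peak in all 4 libraries, and region 10 an H3K27Ac peak in all 3 DMSO and 2 of 3 dTAG-13 libraries. Of the genes near these regions, Gm13036 was called higher at 24 h (log2 fold change 1.28) and lower at 96 h (-1.20), and Gm21860 higher at 96 h (2.17), while Gm13034 had -0.82 and Mid1-ps1 0.45 at 24 h.

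Few kept regions carried marks of activity, and the share was higher in each dTAG-13 library than in DMSO, as it was for H3K27Ac and MED23 over all 10000 highest regions of DMSO library 1. Peaks were taken as the 20000, 5000 and 10000 highest of each H3K27Ac, RNAPII and MED23 library, because libraries differ in how many were deposited. H3K27Ac peaks overlapped 2.43%, 2.62% and 2.53% of kept regions in DMSO and 5.34%, 5.73% and 6.44% with dTAG-13, and the groups did not overlap (means 2.53% ± 0.0936 and 5.83% ± 0.558, SD, n = 3 each, two-sided exact permutation p = 0.1, the smallest this design allows). MED23 peaks overlapped 1.47% and 1.50% of kept regions in DMSO and 5.61% and 5.46% with dTAG-13 (exact permutation p = 0.333, the smallest for 2 against 2). Over those 10000 regions the means went from 3.46% to 6.61% for H3K27Ac and from 1.48% to 5.21% for MED23, beside which the changes in kept regions were of like size. RNAPII peaks overlapped 0.208% and 0.166% in DMSO and 0.353% and 0.332% with dTAG-13 (exact permutation p = 0.333). With all deposited peaks in place of the highest, the direction turned for RNAPII (-0.457 percentage points) and MED23 (-0.592 percentage points). The dTAG-13 libraries then bring 7689 to 8182 RNAPII peaks against 19194 to 19853 in DMSO, and 14551 to 15335 MED23 peaks against 58925 to 63045.

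H3K27Ac rose in share less in kept regions than in regions not kept. The latter went from 4.55% ± 0.284 to 12.7% ± 0.413 (SD, n = 3 each), and the difference between kept and not kept moved by -4.84 percentage points with dTAG-13 (two-sided exact permutation p = 0.1). MED23 in regions not kept went from 1.52% to 8.96%, on the means of 2 libraries each. Within kept regions the change lay mostly outside IAPez. With a probe match, H3K27Ac overlapped 0.188% of regions in DMSO and 0.576% with dTAG-13 on the means of 3 libraries, and without a match 5.87% and 13.4%. The shares of regions not kept given above include regions with a probe, so they are no like comparison for the shares without a match. A probe was held by 58.8% of kept regions and 14.4% of regions not kept, and 150 of these 152 had no H3K27Ac peak in any library. The part of IAPez content in the difference between kept and not kept was not tested. MED23 overlapped 0.106% and 0.494% with a match and 3.46% and 12.7% without, on the means of 2. In all, 4398 kept regions (91.3%) had no H3K27Ac peak in any library. An H3K27Ac peak in every dTAG-13 and no DMSO library was found in 112, of which 5 held a probe, and such a MED23 pattern in 177, of which 9 did. How many unique positions each kind of region offers to reads was not tested.

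**Figure D3:**
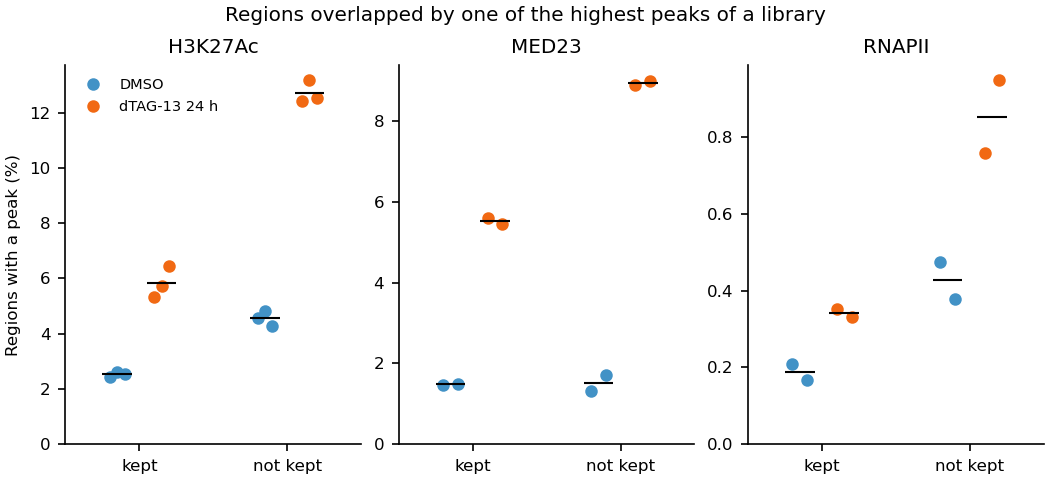
Percent of kept (4816) and not kept (1055) regions overlapped by one of the highest H3K27Ac, MED23 or RNAPII peaks of each library; points are libraries, coloured by treatment, and black lines are group means. The dTAG-13 points lie above the DMSO points in every panel, and the step in H3K27Ac is smaller in kept regions (2.53% to 5.83%) than in regions not kept (4.55% to 12.7%).

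Of 54446 gene IDs, 3311 (6.08%) had their 5′ end within 20 kb of a kept region, among them 1031 protein-coding genes and 799 processed pseudogenes. Among them were 88 of 570 vomeronasal receptor genes (15.4%), 168 of 1407 olfactory receptor genes (11.9%) and 46 of 400 Zfp zinc-finger genes (11.5%). The bodies of 37 Zfp genes (9.25%) overlapped a kept region, against 2.07% of all genes and 3.07% of protein-coding genes. No test was made of these shares, since clustered genes share their surroundings. In none of the 4 comparisons did 2399 of the 3311 genes (72.5%) pass the filter on low values, against 61.3% of all genes, so the counts below speak of the remaining genes alone.

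Genes near kept regions were compared between dTAG-13 and DMSO with limma fitted over all genes, and called at a Benjamini-Hochberg adjusted p below 0.05 and more than 2-fold on the scale of log2(value + 0.5), which understates changes of low genes. In TT-SLAM-seq at 24 h, 20 of 437 tested genes near kept regions were higher (4.58%) and 2 lower, where 2.49% of all 13357 genes were called higher and 0.906% lower. In RNA-seq at 24 h, 110 of 796 were higher (13.8%) and 9 lower (1.13%), where 10.1% of all genes were called higher and 2.01% lower. At 96 h, 170 were higher (21.4%) and 77 lower (9.67%), near the 20.3% and 12.4% of all genes. In the shREPEATS line at 24 h, 74 of 674 were higher (11.0%) and 5 lower (0.742%), where 2.38% of all genes were called higher and 1.44% lower. The median log2 fold change near kept regions was 0.29, 0.22, 0.07 and 0.27 in this order, against 0.21, 0.13, 0.05 and 0.14 over all genes tested. Centring each library on its median moved the median of all genes by 0.243, 0.289, 0.277 and 0.165 on the log2 scale, and this changed the split of calls. After centring, 53 genes near kept regions (6.66%) were higher and 24 (3.02%) lower in RNA-seq at 24 h, against 4.94% and 5.13% of all genes. TT-SLAM-seq then gave 11 higher (2.52%) and 3 lower (0.686%), against 1.06% and 1.80% of all genes. RNA-seq at 96 h gave 133 (16.7%) and 138 (17.3%), against 15.1% and 18.8%, and the shREPEATS line 58 (8.61%) and 5 (0.742%), against 1.52% and 2.18%.

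The shREPEATS share fell with distance. Of genes starting within 5 kb of a kept region 35 of 164 (21.3%) were higher, and the share was 7.65% from 5 to 20 kb, 6.76% from 20 to 50 kb, 3.47% from 50 to 100 kb and 1.47% beyond. Of the 74 tested genes within 20 kb that had an exon inside a kept region 20 were higher. For the time course at 24 h the share fell from 16.0% within 5 kb to 9.59% beyond 100 kb. Beside these, 61 of 376 genes (16.2%) within 20 kb of regions not kept alone were higher in the time course at 24 h, and 24 of 352 (6.82%) in the shREPEATS line, and the difference from genes near kept regions was not tested. The dTAG-13 effect at 24 h differed between the shREPEATS line and the time course for 379 of 771 genes near kept regions (limma interaction, adjusted p below 0.05), or 49.2%, near the 51.4% of all genes. With dTAG-13 and Dox, none of the 674 genes near kept regions was called against DMSO in either direction (limma; 113 higher and 7 lower at an unadjusted p below 0.05, with 0.00619% and 0.0124% of all genes called), and against dTAG-13 alone 61 were lower and 4 higher (1.96% and 1.49% of all genes). These comparisons were added after values were seen. The comparisons in the shREPEATS line share libraries.

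**Figure D4:**
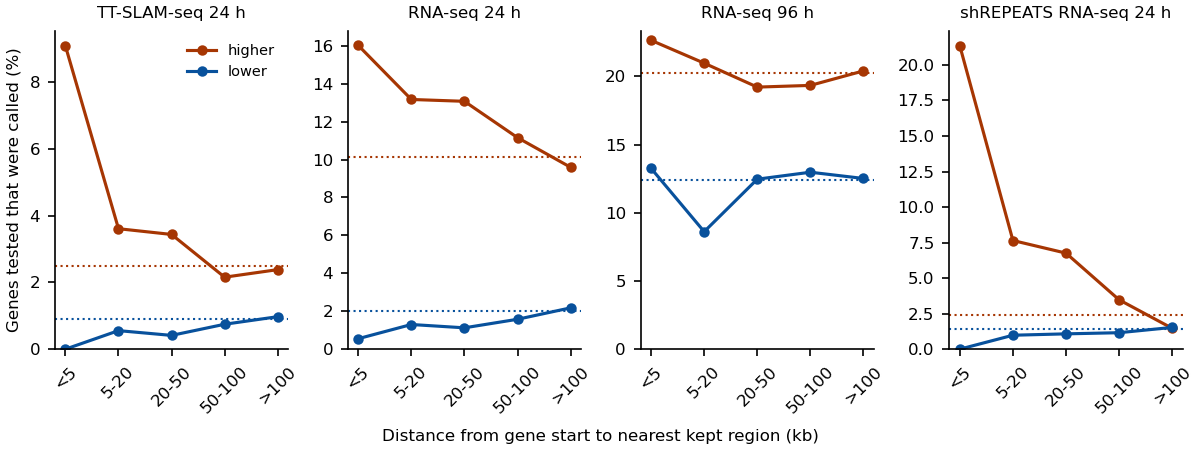
Percent of tested genes called higher (red) or lower (blue) with dTAG-13, by distance from the gene start to the nearest kept region (kb), in 4 comparisons; dotted lines give the share over all genes tested. In the shREPEATS line the share called higher falls from 21.3% within 5 kb to 1.47% beyond 100 kb, and at 96 h it stays near 20.3%.

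In RNA-seq, summed mESC markers fell with dTAG-13 in both lines, while summed fibroblast markers rose in the time course alone. At 96 h all 8 mESC markers tested (Pou5f1, Nanog and others) were lower, with a summed level of 371 to 432 TPM against 3380 to 3531 TPM in DMSO. Of 7 fibroblast markers tested 5 were higher (summed level over the list of 8 of 272 to 296 against 22.2 to 23.1 TPM), and of 6 endoderm markers 4 were (78.5 to 83.4 against 15.0 to 19.3 TPM). Of all genes tested, 20.3% were called higher and 12.4% lower at 96 h, and 10.1% and 2.01% at 24 h. In the shREPEATS line these shares were 2.38% and 1.44%. The part of these markers in the results of either line was not tested. At 24 h the mESC markers summed to 2164 to 2273 TPM, with 2 of 8 lower, and the fibroblast markers to 29.0 to 31.9 TPM. Nanog alone of the mESC markers had a positive log2 fold change then (0.54), but -1.06 in the shREPEATS line. The endoderm markers summed to 25.9 to 27.1 TPM at 24 h, with 0 of 6 called higher. Gata6 (-0.32), Foxa2 (-0.42) and Sox7 (-0.88) went down, while Gata4 (0.22), Sox17 (0.54) and Dab2 (0.94) went up. In the shREPEATS line at 24 h the mESC markers summed to 814 to 828 TPM against 1387 to 1540 TPM in DMSO, with 4 of 8 lower. Its fibroblast markers summed to 100.0 to 112 TPM against 106 to 115 TPM in DMSO, so they already stood above those of the time course, and its endoderm markers to 21.9 to 26.0 against 16.6 to 19.3 TPM. Of 6 fibroblast markers tested there 0 were called higher and 0 lower, and of 4 endoderm markers 1 was higher (Sox17, 2.05). In bulk RNA, fewer cells of a type and less RNA per cell cannot be told apart.

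Of the largest rises near kept regions at 24 h, those of 4 genes were called in both lines. Cthrc1, which encodes a secreted protein of the extracellular matrix, starts 7022 bp from a kept region without IAPez probes (chr15:39067510-39069910). Its RNA was 16.6, 18.3 and 14.5 TPM in DMSO and 236, 247 and 239 TPM at 24 h, a log2 fold change of 3.84 ± 0.09 (SE, limma adjusted p = 2.42e-12), and 80.8, 80.3 and 96.4 TPM at 96 h. At 2 h it was 15.9, 18.9 and 17.8 TPM, within the range of DMSO but for 1 library, and at 6 h 29.1, 31.1 and 28.3 TPM. Every library at 24 h exceeded every DMSO library by more than any spread within a group. In TT-SLAM-seq it went from 0.458, 0.405 and 0.534 FPKM to 6.16, 5.75 and 8.34 FPKM (log2 fold change 2.89 ± 0.15, SE, limma adjusted p = 1.11e-05). In the shREPEATS line it was 8.33, 11.1 and 8.95 TPM in DMSO, 130, 123 and 126 TPM with dTAG-13 and 10.5, 10.5 and 10.2 TPM with dTAG-13 and Dox. The kept region itself had H3K9me3 fold enrichments of 5.58, 3.88 and 4.16 in DMSO and of 3.09 and 2.59 in dTAG-13 libraries 2 and 3, with no peak in library 1. It overlapped an H3K27Ac peak in all 3 dTAG-13 and no DMSO library, and a MED23 peak in both dTAG-13 and no DMSO library.

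Cyp2b23, a cytochrome P450 gene, starts 3949 bp from a kept region (chr7:26690386-26691806). Its RNA rose from 2.51, 2.76 and 2.58 TPM to 30.5, 36.9 and 36.7 TPM at 24 h (log2 fold change 3.49 ± 0.11, SE, limma adjusted p = 1.59e-11) and by 3.89 on the log2 scale in the shREPEATS line (limma adjusted p = 9.01e-09). It belongs to a cluster of related Cyp2b genes, among which reads may be split. 2010005H15Rik (log2 fold change 3.36 at 24 h, 3.31 at 96 h and 3.26 in the shREPEATS line) begins inside a kept region, and Gm19792, a long noncoding RNA (3.05, 2.63 and 3.39), has an exon in one. Both of these regions overlapped H3K27Ac and MED23 peaks in dTAG-13 and in no DMSO library. So did the kept region 3749 bp from 1700029P11Rik, a gene called lower at 96 h (-3.24), which gained RNAPII peaks as well. A link between such peaks and the direction of a gene was not tested. At 96 h the largest rise was that of Vnn1, a pantetheinase gene (7.15, from 0.400, 0.508 and 0.550 to 147, 143 and 128 TPM), followed by Gm36551 (5.42), Endou (4.22), H19 (3.71) and Wnt2b, a WNT ligand (3.57). BC048671 rose by 3.06 on the log2 scale at 24 h. TT-SLAM-seq also gave Mir3096 (3.13), Gm46146 (2.08), Gm13194 (1.74) and Gm45512 (1.55) as higher.

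Among imprinted genes, H19, Herc3 and Nap1l5 of 48 listed genes start within 20 kb of a kept region. H19, a maternally expressed noncoding RNA, lies 140 bp from a kept region of 5248 bp (chr7:142578283-142583530) that held 6 copies of TGCCGC and no IAPez probe. H3K9me3 there was 5.31, 4.87 and 4.40-fold in DMSO, 2.99 and 2.11-fold in dTAG-13 libraries 2 and 3, and without a peak in library 1. Peaks covered 100% (by definition), 100% and 92.1% of this region in the DMSO libraries, but only 19.8% and 6.44% in dTAG-13 libraries 2 and 3. H19 RNA was 6.85, 8.05 and 6.99 TPM in DMSO, 33.6, 29.1 and 33.5 TPM at 24 h (log2 fold change 2.06 ± 0.11, SE, limma adjusted p = 1.43e-09) and 105, 108 and 92.4 TPM at 96 h (3.71). All libraries at 24 h lay above all of DMSO, and those at 96 h above those at 24 h. Nap1l5, whose 5′ end lies inside a kept region with 6 copies of TGCCGC, did not pass the filter. Herc3 did not pass the 2-fold limit (log2 fold change 0.89 at 24 h).

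Genes of the 2-cell programme, which is active in the early embryo and in rare mESCs, had 4 of 27 listed members within 20 kb. Tdpoz3 was called in both lines, with 1.12, 1.04 and 1.34 TPM in DMSO and 3.21, 2.83 and 3.55 TPM at 24 h (log2 fold change 1.15, limma adjusted p = 7.81e-06), and with a change of 2.65 in the shREPEATS line. Zscan4b starts 3748 bp from a kept region with 25 IAPez probes. It was 42.0, 39.9 and 43.1 TPM in DMSO and 33.8, 37.0 and 36.6 TPM at 24 h, but 31.8, 39.4 and 36.6 TPM in shREPEATS DMSO and 109, 101 and 121 TPM with dTAG-13 (log2 fold change 1.61, limma adjusted p = 3.4e-08). Arg2 had -0.48 at 24 h and 1.38 in the shREPEATS line. Over the whole list 16 of 22 tested genes were higher in the shREPEATS line and 1 of 22 at 24 h in the time course. Of all genes tested, 2.38% and 10.1% were. Genes of this programme have near-identical copies, among which reads may be split. No gene of the germline list starts within 20 kb of a kept region.

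**Figure D5:**
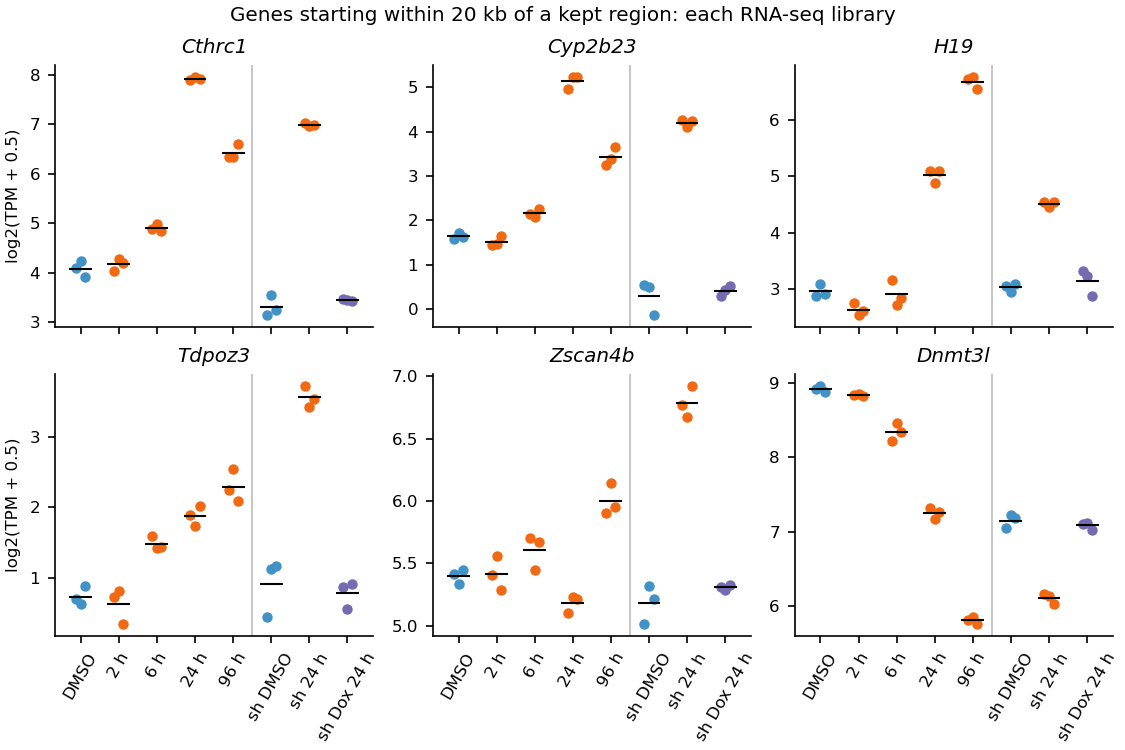
RNA level of 6 genes that start within 20 kb of a kept region, as log2(TPM + 0.5), in every RNA-seq library of the time course (left of the grey line) and of the shREPEATS line (sh; right of it); points are libraries, lines are group means, and vertical axes differ and do not start at 0. Cthrc1 and Cyp2b23 are highest at 24 h, H19 at 96 h, Zscan4b with dTAG-13 in the shREPEATS line, Dnmt3l falls, and the libraries labelled Dox lie with DMSO.

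None of the listed genes of the pathway itself was called higher. Of 36 genes of the H3K9me3 machinery (methyltransferases, HP1 proteins, demethylases and partners), Dnmt3l and Kdm4a start within 20 kb of a kept region (5.56%, where 6.08% of all genes do). Over the list 0 of 35 tested genes were higher and 3 lower at 24 h, 0 and 12 at 96 h, and 0 and 1 in the shREPEATS line, and no member was called in TT-SLAM-seq among 34 (limma). Of all genes tested, 10.1% were higher and 2.01% lower at 24 h, and 20.3% and 12.4% at 96 h. The shares were 2.38% and 1.44% in the shREPEATS line, and 2.49% and 0.906% in TT-SLAM-seq. Dnmt3l, a cofactor of the de novo DNA methyltransferases, went from 483, 496 and 470 TPM to 159, 143 and 152 TPM at 24 h (log2 fold change -1.67 ± 0.05, SE, limma adjusted p = 2.37e-11) and to 55.9, 57.1 and 53.6 TPM at 96 h. Its log2 fold change was -1.04 in the shREPEATS line. Kdm4a, an H3K9 demethylase, had -0.28 at 24 h and 0.08 in the shREPEATS line.

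Aire, a transcription regulator known from the thymus, overlaps Dnmt3l on the opposite strand and starts within 20 kb of the same kept region, which holds 8 probes. Its RNA was 55.2, 55.4 and 71.7 TPM in DMSO, 45.9, 58.8 and 50.7 TPM at 24 h and 0.319, 0.418 and 0.538 TPM at 96 h (log2 fold change -6.05 ± 0.11, SE, limma adjusted p = 5.19e-15). Tdrd12, a factor of the piRNA pathway, fell by 4.98 on the log2 scale at 96 h, Gm16211 by 3.50 and 1700029P11Rik by 3.24. At 24 h the largest fall in RNA-seq of the time course was that of Atp1a4 (-1.99), followed by those of Dnmt3l, Rfx4 (-1.56), Gm11218 (-1.45) and Myo1g (-1.30). In the shREPEATS line Aire fell by 1.98, Myo1g by 1.44, Tdrd12 by 1.38 and Pnpla3 by 1.13. TT-SLAM-seq gave 0610039K10Rik (-2.31) and Alkbh4 (-1.25) as lower.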

How the data were processed

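Peaks were called by the authors in each library, not on pooled libraries, on mm10 (MACS2, BWA, SAMtools, GATK 4.1.4.1, cutadapt 2.4 and deepTools 3.4.3 are named in the submitters' processing notes, with no role given). The deposited fold enrichment is a ratio over the caller's background, and the deposited −log10 q is within a library. The authors deposited TPM per gene from StringTie 2.0.6 on STAR 2.7.5a alignments, with unscaled mean read coverage, and TT-SLAM-seq FPKM from reads with T-to-C conversions. Depth in reads is not given by TPM tables or peak lists, so it is unknown here. All 53229 shared gene IDs had the same coordinates in GENCODE vM21 on GRCm38.

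The members and gene lists were chosen with earlier results of these data known. Overlaps needed 1 bp. Genes were fitted on log2(value + 0.5) by limma 3.58.1 under R 4.3.3, with a mean-variance trend, over all groups of an experiment, for genes with at least 0.5 FPKM or 1 TPM in at least 3 libraries, and the fit was tested on simulated data. Shares of regions were compared by exact permutation over libraries. The genes named are those near kept regions with the 5 largest rises and falls per comparison, called genes of 4 lists, and genes near the 10 regions described singly. Herc3, Nap1l5, Kdm4a and Trim28 were named after their values were seen. Sequences come from the mm10 reference and the study's probe and shRNA tables. Regions on chromosome 18 were not considered for the printed windows. Alternatives covered rule, pseudocount, filter, scaling, distance, replicate block and left-out libraries.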

Additional observations from a re-analysis of the deposited data

Results flagged for a closer look

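The dTAG-13 effect at 24 h was compared between the shREPEATS line and the time course by an interaction term (limma, over 17653 genes). The term was past an adjusted p of 0.05 for 379 of 771 genes near kept regions (49.2%), where 51.4% of all genes were called. Of the genes named in the text, 19 differed. The term is the log2 fold change in the shREPEATS line minus that in the time course, with its sign, so that it is positive also where a gene fell less. It was positive for Endou (1.97), Arg2 (1.86), Zscan4b (1.82), Gm36551 (1.60), Atp1a4 (1.54), Tdpoz3 (1.50), Gm13034 (1.46), Gm11218 (1.18), Rfx4 (0.952), Dnmt3l (0.633), Alkbh4 (0.516) and 1700029P11Rik (0.427). It was negative for Pnpla3 (-2.29), BC048671 (-2.14), Aire (-1.75), Vnn1 (-1.72), Tdrd12 (-0.803), H19 (-0.578) and Mid1-ps1 (-0.309). Dnmt3l fell in both, and by less in the shREPEATS line (-1.04 against -1.67), while Aire had -1.98 there against -0.22. Atp1a4, Rfx4, Gm11218 and BC048671 did not pass the filter on low values in the shREPEATS line alone, so their terms rest on low values there. The term holds the differences in library preparation and in the labelled time of the DMSO control too. Line, preparation and that time cannot be told apart.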

How the results depend on the processing

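The rule set the number of kept regions: 4816 became 2587 with the 5000 highest peaks, 26398 with all DMSO peaks, 1132 with dTAG-13 peaks among the 10000 highest, 2200 with at least 50% covered, 1944 with a peak in dTAG-13 library 1 and 124 with a −log10 q of at least 10. With all deposited peaks the change turned to -0.457 points for RNAPII and -0.592 for MED23. Higher genes in TT-SLAM-seq (20) were 47 and 8 with pseudocounts of 0.1 and 1, 2 with a mean of at least 5, 11 after centring and 7 within 5 kb. Lower genes there (2) were 0 with that mean, 0 within 5 kb, and from 2 to 5 with a replicate left out, the 5 without DMSO replicate 1. At 24 h, 110 higher were 50 with a mean of at least 5, 53 centred and 29 within 5 kb, and 9 lower were 5 with a pseudocount of 1, 3, 24 and 1. At 96 h, 170 higher were 87 with a mean of at least 5 and 41 within 5 kb, and 77 lower were 47, 138 centred and 24. In the shREPEATS line, 74 higher were 34 and 35, and 5 lower were 3 with a pseudocount of 1, 3 and 0. The cause was not tested, beyond the smaller number of genes or regions that a filter, a distance or a stricter rule leaves. Of the single-gene values, 17 fell below the threshold, 1 (Gm13034) passed it and none turned.

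Same-numbered replicates did not deviate together (r from -0.205 to 0.0649 between DMSO and dTAG-13), so the numbers do not pair the samples. With the replicate block, 21 genes were higher and 2 lower in TT-SLAM-seq. RNA-seq gave 110 rises with 9 falls (24 h) and 170 with 77 (96 h), and the shREPEATS line 74 with 5, so the block changed no call rule's count by over 1.5 times. As paired differences, the H3K27Ac share changed by 3.31 points (exact permutation p = 0.25), MED23 by 4.05 and RNAPII by 0.156 (exact permutation p = 0.5 each).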
